A study of Mus musculus with 7 samples.

Results

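The Rab family of small GTPases was followed in the tibialis anterior (TA) muscle of mice lacking fast skeletal myosin-binding protein C. Members were the genes of the expression table whose symbol begins with Rab and a digit, a rule that uses names and no measured value. It found 50 of the 12239 genes analysed. Of these, 42 encode Rab GTPases, 7 encode effectors or regulators named after a Rab (Rab3gap1, Rab3gap2, Rab3ip, Rab3il1, Rab11fip2, Rab11fip3 and Rab11fip5) and 1 is a noncoding antisense RNA, Rab10os. The gene listed as Rab1 is annotated as Rab1a, and close relatives such as Rab1a and Rab1b are called paralogs here.

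Rab GTPases are switches that mark membranes. Each carries a lipid tail, is loaded with GTP by an exchange factor, recruits effectors such as tethers and motors to its own compartment, and is turned off by a GTPase-activating protein before an escort protein lifts it from the membrane. In skeletal muscle they are best known for moving the glucose transporter GLUT4 to the fibre surface after insulin or exercise, and for the traffic that feeds lysosomes and autophagosomes.

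The TA is a fast-twitch muscle at the front of the shin, and the muscles came from male FVBN mice aged 5 to 6 months. The groups were wild-type (WT, 4 libraries) and C2-/- (3 libraries), in which exons 2 to 22 of Mybpc2 were replaced by a neomycin cassette flanked by LoxP sites. This allele is constitutive and not limited to muscle. Poly(A) RNA was sequenced, and the deposited values are log2 CPM (reads per 1e+06 reads after scaling between libraries). The study counts as many young mice in each group as there are libraries here, although the labels do not tie a library to a mouse.

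Mybpc2 had 100452, 110159, 83371 and 25665 reads in WT replicates 1 to 4 and 6, 8 and 3 reads in C2-/- replicates 1 to 3, so that the log2 change was -11.82 ± 0.41 (SE, adjusted p from limma = 4.85e-07). Depth was uneven. WT replicates 1 to 3 held 14929214 to 15464499 reads in the table, whereas WT replicate 4 and the C2-/- libraries held 2613277 to 4917936. For each library the log2 difference of every gene from the mean of the deep WT libraries other than itself was set against transcript GC content. The share of its variance that went with GC content was 0.836 to 3.28% for the deep WT libraries, 9.51% for the shallow one and 33.6 to 37.8% for C2-/-. All 8 markers of muscle fibres were abundant, with at least 5902 reads in each library. Their summed level was 187409 to 217165 CPM in WT and 97519 to 117312 in C2-/-, with 5 of 8 past the threshold and lower. All 5 fibroblast markers were past it and higher (453 to 774 against 1514 to 1864 CPM). The 5 endothelial markers (300.0 to 425 against 276 to 362 CPM), 5 macrophage and leukocyte markers (14.0 to 28.2 against 13.3 to 26.3 CPM), 5 Schwann cell markers (34.4 to 83.4 against 34.7 to 60.8 CPM), 3 satellite cell markers (7.62 to 32.0 against 12.2 to 17.3 CPM) and 2 adipocyte markers (0.195 to 4.10 against 2.06 to 11.6 CPM) overlapped between the groups, with 1, 1, 1, 1 and 0 past the threshold. None of the markers analysed was at 0 reads in all C2-/- libraries, and of the 4 red blood cell markers listed none was among the genes analysed. In whole muscle, fewer cells of a type and less RNA per cell cannot be told apart, and the part of these cell markers, of depth and of GC content in the Rab changes was not tested except by the GC correction given below.

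Rab GTPases changed in both directions. Of 42, 20 passed the threshold in the study's methods (adjusted p under 0.05 and more than 1.5-fold), 12 higher and 8 lower in C2-/- TA muscle. A log2 limit of 0.5, which several of the study's legends name, would add Rab5a alone among the members. This is 47.6% of the family, against 45.2% of all genes (20.2% higher and 25% lower), so the share called in the family was close to the background. With each library centred on its own median the numbers were 16 higher and 6 lower, and over all genes 46% were past the threshold, 24.8% higher and 21.2% lower. The values of the WT and C2-/- libraries did not overlap for 27 of the 42, against 49.3% of all genes. The median log2 change was 0.40 over the 42 GTPases and -0.14 over all genes. After GC correction, in which each library's trend of log2 value on transcript GC content was replaced by the mean trend of all libraries, the median of all genes was 0.02 and that of the GTPases -0.02. With the correction 6 of 42 were past the threshold (14.3%, background 20.6%), of which 4 were higher (background 12.3%) and 2 lower (background 8.33%). Of these 6, Rab4a and Rab18 had not been past it with the deposited values. The corrected values did not overlap for 13 of the 42, against 33.4% of all genes.

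**Figure D1:**
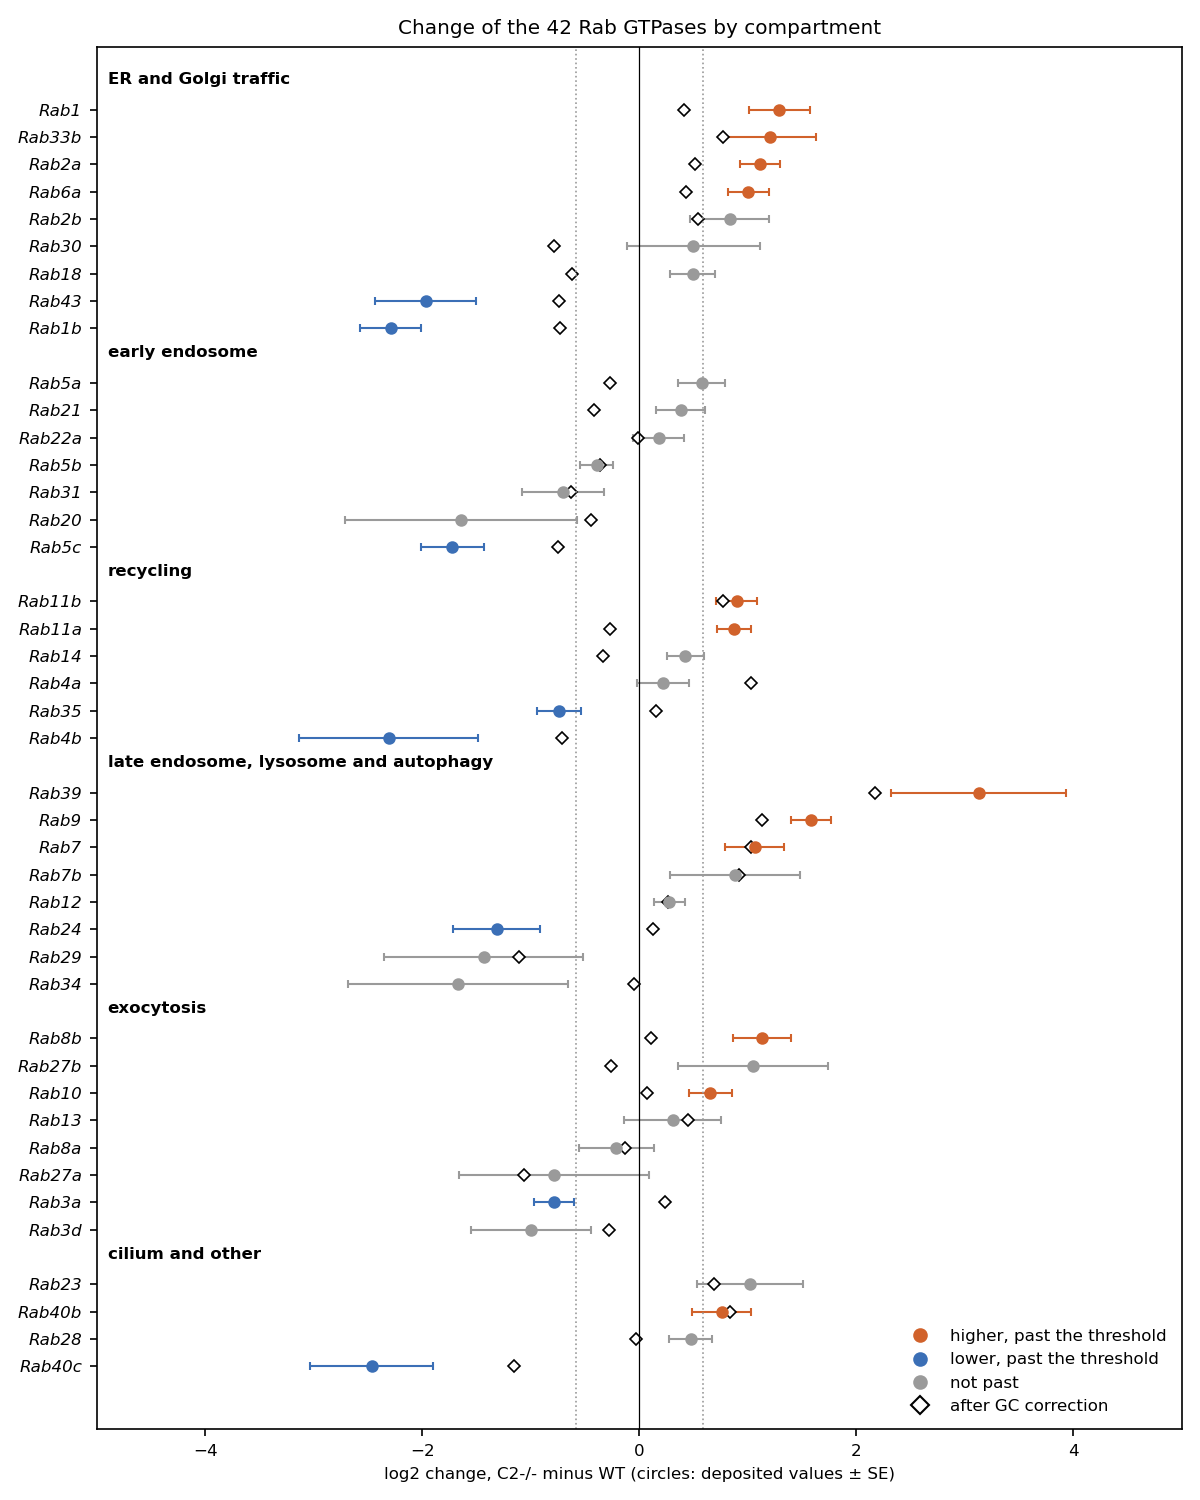
Log2 change (C2-/- minus WT) of each of the 42 Rab GTPases, grouped by compartment. Circles are the deposited values with SE, orange where higher and blue where lower past the threshold, and open diamonds are the values after GC correction. Dotted lines mark the 1.5-fold limits, and of the 20 coloured circles 4 (Rab1b, Rab11b, Rab9 and Rab7) were past the threshold after GC correction as well.

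Of the 9 GTPases of ER and Golgi traffic 4 were higher and 2 lower (66.7%, against 45.2% of all genes). The compartments hold 4 to 9 GTPases each, so their shares are given as descriptions. Rab1 and Rab1b, paralogs that both drive transport from the endoplasmic reticulum to the Golgi, went opposite ways. Rab1 (chr11:20201432-20226856, GRCm38) stood at 7.02, 7.08, 7.07 and 8.26 log2 CPM in WT replicates 1 to 4 and at 8.51, 8.71 and 8.72 in C2-/- replicates 1 to 3. It rose 2.45-fold (log2 change 1.29 ± 0.28, SE, limma, adjusted p = 0.00521), and of the WT values that of replicate 4 was closest to C2-/-. Rab1b (chr19:5099205-5107072) stood at 6.94, 7.02, 7.04 and 6.28 in WT and at 5.13, 4.09 and 4.38 in C2-/-. It was 4.89-fold lower (-2.29 ± 0.28, adjusted p = 0.000424), every C2-/- library was below every WT library, and the read numbers were 342 to 2026 against 45 to 101. After GC correction the log2 changes were 0.42 for Rab1, no longer past the threshold, and -0.73 for Rab1b, still past it.

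The paralogs encode nearly the same switch from different bases, which is shown here for a stretch of coding exon around the switch II motif. The sequences come from the GENCODE transcripts on GRCm38, written 5' to 3' on the gene's strand, and capitals mark the bases at which the pair differ. Rab1 lies at chr11:20223084-20223143 (plus strand) and Rab1b at chr19:5104677-5104736 (minus strand).
Rab1: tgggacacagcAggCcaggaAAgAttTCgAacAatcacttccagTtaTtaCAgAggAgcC
Rab1b: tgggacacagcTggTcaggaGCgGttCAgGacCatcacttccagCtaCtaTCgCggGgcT
Of these 60 bases 16 differ, 13 of them at the last position of a codon, and all 20 codons name the same amino acid. At the 16 differing positions Rab1 has G or C at 4 and Rab1b at 11. Over the whole coding sequence 88.1% of 201 codons name the same amino acid, and at those codons the last base is G or C in 44.1% for Rab1 and 68.4% for Rab1b. The transcripts as a whole hold 42.0% and 58.9% G and C.

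Rab2a, which acts between the Golgi and the endoplasmic reticulum, stood at 7.57, 7.70, 7.44 and 7.87 log2 CPM in WT and 8.47, 8.72 and 9.09 in C2-/-. It rose 2.16-fold (1.11 ± 0.18, limma, adjusted p = 0.00145). Rab6a, a Golgi GTPase, stood at 6.80, 7.05, 6.74 and 7.43 in WT and 7.96, 8.10 and 7.98 in C2-/-, a 2.01-fold rise (1.01 ± 0.19, adjusted p = 0.00245). The groups did not overlap for either gene. Rab33b, a Golgi GTPase that also takes part in autophagosome formation, was at 3.48, 3.26, 3.19 and 1.99 in WT and 3.61, 4.74 and 4.21 in C2-/-, with 17 to 171 reads (1.21 ± 0.43, adjusted p = 0.04). Its lowest C2-/- value was only just above the highest WT value. Rab43, another Golgi GTPase, was at 3.24, 3.16, 3.14 and 2.97 in WT and 2.10, 0.39 and 0.98 in C2-/-, where it had 12, 3 and 9 reads (-1.97 ± 0.46, adjusted p = 0.00719). Of the exon bases of Rab43, 75.35% also belong to Gm45140 on the same strand, so its reads may have been shared between the gene models. On the other strand, 18.99% of the exon bases of Rab6a overlap Mrpl48, 18.68% of those of Rab33b overlap Gm38160 and 59.31% of those of Rab2b overlap Gm43766. After GC correction Rab2a (0.51), Rab6a (0.43), Rab33b (0.77) and Rab43 (-0.74) kept their signs and none passed the threshold. Rab2b (0.83 ± 0.36), Rab30 (0.50 ± 0.62) and Rab18 (0.49 ± 0.21), the last of the endoplasmic reticulum and lipid droplets, did not pass it with the deposited values. Rab18 changed sign and passed after GC correction (-0.62).

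Of the 7 early endosome GTPases, Rab5c was lower and none was higher (14.3%, against 45.2% of all genes). The 3 Rab5 paralogs, which share the control of endosome fusion, differed among themselves. Rab5c was at 5.63, 5.49, 5.64 and 6.01 log2 CPM in WT and 4.45, 4.18 and 3.27 in C2-/-, 3.30-fold lower with no overlap (-1.72 ± 0.29, limma, adjusted p = 0.00159). Rab5a was at 5.70, 5.78, 5.67 and 5.88 in WT and 6.80, 6.27 and 5.93 in C2-/- (0.57 ± 0.21, adjusted p = 0.0499), with a fold just under the limit. Rab5b was at 7.31, 7.47, 7.45 and 7.60 in WT and 7.23, 6.91 and 7.06 in C2-/- (-0.39 ± 0.15, adjusted p = 0.0572). The groups did not overlap for any of these 3 genes. GC correction brought them to -0.75 (Rab5c), -0.27 (Rab5a) and -0.37 (Rab5b), none past the threshold, so Rab5a changed sign. Rab5a (chr17:53497553-53497642, plus strand) and Rab5c (chr11:100718467-100718556, minus strand) are shown over the same motif, with capitals at differing bases.
Rab5a: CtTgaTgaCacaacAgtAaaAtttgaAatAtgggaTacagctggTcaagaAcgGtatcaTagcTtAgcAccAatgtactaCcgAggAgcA
Rab5c: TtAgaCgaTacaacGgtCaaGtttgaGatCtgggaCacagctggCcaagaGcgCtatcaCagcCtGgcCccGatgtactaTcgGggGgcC
Here 22 of 90 bases differ, 20 at the last position of a codon, and all 30 codons name the same amino acid. Rab5a has G or C at 4 of the differing positions and Rab5c at 18. Rab22a (0.18 ± 0.23) and Rab31 (-0.70 ± 0.38), a pair of endosomal paralogs, as well as Rab21 (0.38 ± 0.22) and Rab20 (-1.64 ± 1.07), did not pass. Rab20 had 4, 1 and 0 reads in C2-/- and 1 read in WT replicate 4, without which the change was -2.32, also not past the threshold.

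Recycling GTPases, which return cargo to the surface, had 2 of 6 higher and 2 lower (66.7%, against 45.2% of all genes). Rab11a, the GTPase of the recycling endosome, was at 5.67, 5.71, 5.63 and 5.64 log2 CPM in WT and 6.45, 6.43 and 6.72 in C2-/-, a 1.83-fold rise (0.87 ± 0.16, limma, adjusted p = 0.00229). Rab11b was at 5.92, 5.68, 5.88 and 6.36 in WT and 6.99, 6.72 and 6.85 in C2-/-, a 1.86-fold rise (0.90 ± 0.19, adjusted p = 0.00465). Neither pair of groups overlapped, and the rises were of similar size. After GC correction they separated, with 0.77 and still past the threshold for Rab11b and a change of sign to -0.27 for Rab11a. Rab11a (chr9:64728236-64728307, minus strand) and Rab11b (chr17:33749784-33749855, minus strand) are shown because they differ at last codon positions as the Rab1 pair does, although both rose.
Rab11a: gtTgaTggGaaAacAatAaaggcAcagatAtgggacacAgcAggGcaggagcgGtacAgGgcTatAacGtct
Rab11b: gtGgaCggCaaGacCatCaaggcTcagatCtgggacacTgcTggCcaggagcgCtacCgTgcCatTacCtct
Of the 72 bases 17 differ, 16 at the last position of a codon, with all 24 codons naming the same amino acid. Rab11a has G or C at 5 of the differing positions and Rab11b at 12, and the whole transcripts hold 39.5% and 48.1% G and C.

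Rab4a and Rab4b, which act in fast recycling from early endosomes, also parted. Rab4b was at 2.22, 2.35, 2.33 and 1.99 log2 CPM in WT and 0.92, -2.42 and 1.25 in C2-/-, where it had 5, 0 and 11 reads (-2.31 ± 0.82, limma, adjusted p = 0.042). The library at 0 reads set the size of this fall, which was -1.14 without C2-/- replicate 2. Rab4a was at 4.43, 4.74, 4.49 and 4.87 in WT and 4.52, 4.82 and 5.22 in C2-/-, overlapping (0.22 ± 0.24, adjusted p = 0.465), and passed only after GC correction (1.03). Of the exon bases of Rab4b, 64.97% are shared with Gm21983 on the same strand. The pair is shown over the motif as well, Rab4a at chr8:123827380-123827436 (plus strand) and Rab4b at chr7:27175781-27175837 (minus strand).
Rab4a: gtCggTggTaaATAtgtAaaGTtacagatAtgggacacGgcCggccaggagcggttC
Rab4b: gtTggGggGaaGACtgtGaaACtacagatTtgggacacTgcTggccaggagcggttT
Of these 57 bases 13 differ, 10 at the last position of a codon, and 18 of 19 codons name the same amino acid. Rab4a has G or C at 5 and Rab4b at 6 of the differing positions, so this stretch, unlike those of Rab1 and Rab5, hardly differs in GC content between the paralogs. Rab35, a recycling GTPase, was at 5.31, 5.40, 5.53 and 5.11 in WT and 4.68, 4.76 and 4.35 in C2-/-, 1.67-fold lower (-0.74 ± 0.21, adjusted p = 0.0153), with a change of sign after GC correction (0.16). Rab14 was at 6.85, 6.80, 6.82 and 6.83 in WT and 6.91, 7.37 and 7.47 in C2-/- and did not pass (0.42 ± 0.17, adjusted p = 0.0639), although the groups did not overlap.

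Late endosome, lysosome and autophagy GTPases had 3 of 8 higher and 1 lower (50%, against 45.2% of all genes). Rab7, which directs fusion with lysosomes, was at 8.43, 8.26, 8.27 and 9.46 log2 CPM in WT and 9.71, 9.76 and 9.54 in C2-/-. It rose 2.09-fold (1.06 ± 0.28, limma, adjusted p = 0.0112), and WT replicate 4 lay just below the lowest C2-/- library. Rab9, which returns receptors from late endosomes to the Golgi, was at 4.36, 4.25, 4.25 and 4.33 in WT and 5.78, 5.90 and 5.96 in C2-/-, a 2.99-fold rise (1.58 ± 0.18, adjusted p = 0.000353). Here all 4 WT libraries, the shallow one included, were close together and far from the C2-/- libraries. Rab7 (1.03) and Rab9 (1.13) both passed after GC correction, although for Rab7 the corrected groups overlapped through WT replicate 4. Rab39 had the largest rise of the family, 8.73-fold (3.13 ± 0.81, adjusted p = 0.0109), from a low level, with 12, 2, 17 and 1 reads in WT and 9, 21 and 13 in C2-/-. Its values were -0.30, -2.58, 0.19 and -1.55 in WT and 1.71, 3.01 and 1.48 in C2-/-, and it was not past the threshold after GC correction (2.17). Rab24, linked to autophagy, was at 4.68, 4.75, 4.88 and 4.04 in WT and 3.48, 2.34 and 4.00 in C2-/- (-1.32 ± 0.40, adjusted p = 0.0215), the groups being separated by WT replicate 4 and C2-/- replicate 3 alone. Its sign turned after GC correction (0.12), and 62.43% of its exon bases overlap Prelid1 on the other strand. Since the use of strand in counting is not given in the sources used here, reads of overlapping antisense genes cannot be told apart. Rab12, abundant and active in the degradation of transferrin receptor, was at 8.18, 8.38, 8.19 and 8.11 in WT and 8.42, 8.54 and 8.51 in C2-/- (0.28 ± 0.14, adjusted p = 0.128). Rab7b, Rab29 and Rab34 did not pass, with log2 changes of 0.88 ± 0.60, -1.43 ± 0.92 and -1.67 ± 1.02, and their C2-/- libraries had 0 to 21 reads.

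Exocytosis GTPases had 2 of 8 higher and 1 lower (37.5%, against 45.2% of all genes). Rab8b was at 3.92, 3.97, 3.61 and 3.66 log2 CPM in WT and 4.70, 5.41 and 4.64 in C2-/-, a 2.18-fold rise with no overlap (1.13 ± 0.27, limma, adjusted p = 0.00735). Its paralog Rab8a was at 3.82, 3.75, 3.72 and 4.75 in WT and 4.18, 3.92 and 3.30 in C2-/- (-0.21 ± 0.35, adjusted p = 0.629). Rab10, the Rab tied most closely to GLUT4 vesicles in fat cells, was at 9.09, 9.37, 8.98 and 9.71 in WT and 9.98, 10.05 and 9.79 in C2-/-, a 1.57-fold rise (0.65 ± 0.20, adjusted p = 0.0211). For Rab10 the groups were only just separate, since WT replicate 4 lay close to the C2-/- libraries. Rab3a, the synaptic vesicle GTPase, was at 5.40, 5.44, 5.64 and 5.62 in WT and 4.68, 4.68 and 4.85 in C2-/-, 1.72-fold lower (-0.78 ± 0.18, adjusted p = 0.00674). Rab8b (0.11) and Rab10 (0.07) were close to 0 after GC correction and Rab3a changed sign (0.24). Rab13 was at 2.64, 3.21, 2.78 and 2.48 in WT and 3.80, 3.36 and 2.09 in C2-/- (0.31 ± 0.45, adjusted p = 0.588). Rab3d (-1.0 ± 0.55), Rab27a (-0.78 ± 0.87) and Rab27b (1.05 ± 0.70) did not pass either and stood at 0 to 23 reads in C2-/-.

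Of the 7 GTPases tied to GLUT4 and insulin-responsive vesicles, Rab10 and Rab11a rose, whereas Rab4a, Rab5a, Rab8a, Rab13 and Rab14 did not pass the threshold (28.6% called, against 45.2% of all genes). After GC correction Rab10 was at 0.07 and Rab11a at -0.27, and Rab4a alone of the 7 passed (background 20.6%). Of 5 genes for the cargo of these vesicles 1 was higher and 3 were lower (background 20.2% and 25%). Slc2a4, which encodes GLUT4, went from 9.48 ± 0.21 (SD, n = 4) in WT to 7.39 ± 0.50 (n = 3) in C2-/- (-2.09 ± 0.23, SE, limma, adjusted p = 0.000302), and Sort1, the sorting receptor sortilin, changed by -0.96 ± 0.19 (adjusted p = 0.00278). Vamp2, the vesicle SNARE, rose (0.77 ± 0.19, adjusted p = 0.00954). These 3 kept their sign and passed after GC correction (-0.98, -0.62 and 1.49). Lrp1 was lower with the deposited values (-0.62 ± 0.23, adjusted p = 0.0438) and higher after GC correction (0.81). Without WT replicate 1, 2 or 3 or C2-/- replicate 1 or 3 Lrp1 lost the call (-0.54, -0.59, -0.61, -0.61 and -0.49). Tbc1d1 and Tbc1d4, the GTPase-activating proteins through which insulin and exercise act on these Rabs, were looked up after their values were seen and did not pass (-0.10 ± 0.20 and -0.52 ± 0.60).

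The remaining 4 GTPases act at the primary cilium or carry a SOCS box, the part by which Rab40 proteins join ubiquitin ligases. By log2 change Rab40c had the largest fall of the family, though within its SE of those of Rab4b (-2.31) and Rab1b (-2.29). Rab40c was at 3.01, 2.90, 3.28 and 2.84 log2 CPM in WT and -0.22, -0.10 and 1.94 in C2-/-, where it had 2, 2 and 18 reads (-2.47 ± 0.57, limma, adjusted p = 0.00646). Rab40b was at 4.37, 4.80, 4.17 and 5.15 in WT and 5.10, 5.64 and 5.40 in C2-/- (0.76 ± 0.27, adjusted p = 0.0428). It was the only GTPase past the threshold whose groups overlapped, through WT replicate 4. Neither Rab40 paralog passed after GC correction (-1.16 and 0.84). The ciliary GTPases Rab23 (1.02 ± 0.49) and Rab28 (0.47 ± 0.20) did not pass.

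**Figure D2:**
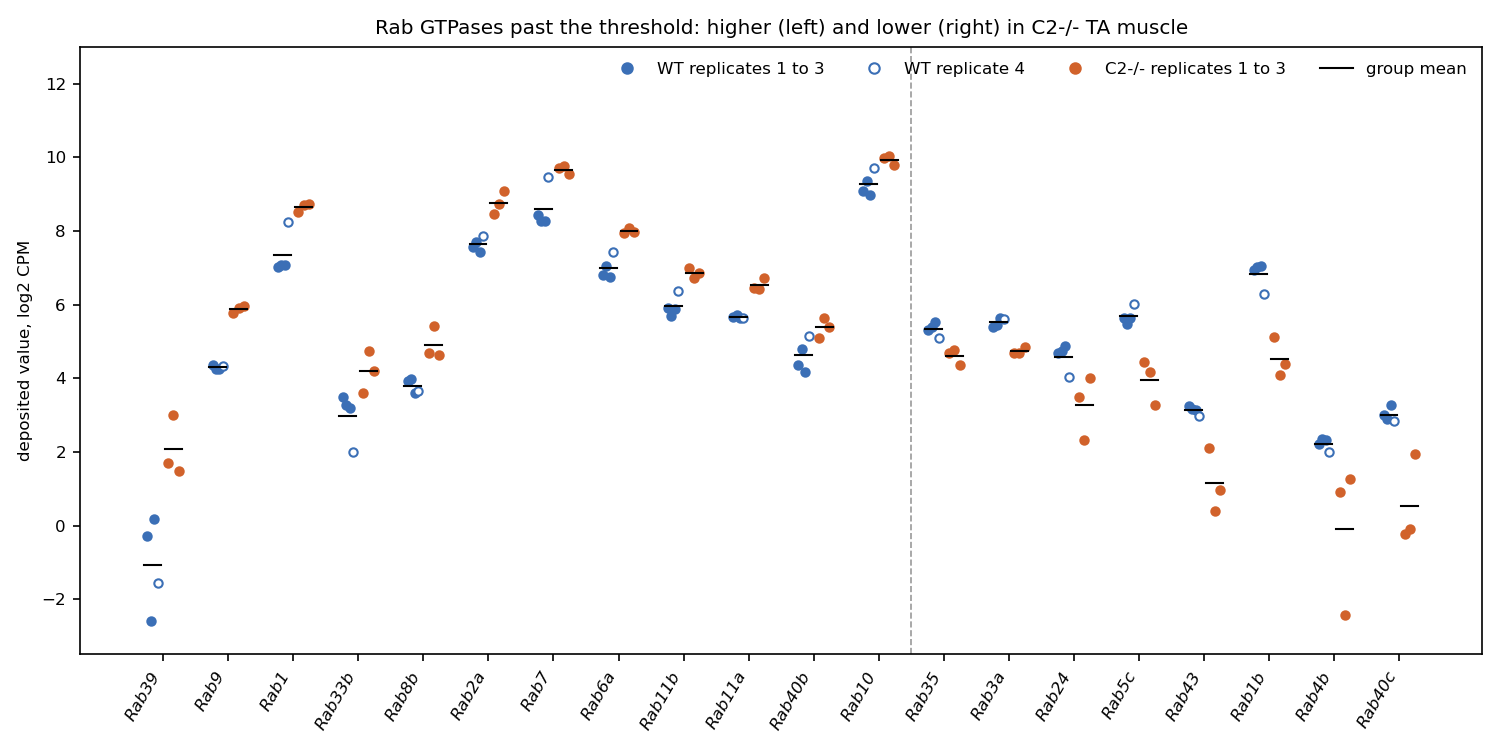
Deposited log2 CPM of the 20 Rab GTPases past the threshold in each of the 7 libraries, with the 12 higher in C2-/- to the left of the dashed line and the 8 lower to the right. Blue points are WT (open, replicate 4), orange points C2-/- and bars group means. WT replicate 4 lies apart from the other WT libraries for Rab1 and Rab7, and the lowest point of Rab4b is a library with 0 reads.

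WT replicate 4 has a depth like that of the C2-/- libraries. For 5 of the 20 GTPases past the threshold (25%) its value was closer to the C2-/- average than to that of the other WT libraries. These were Rab1, Rab40b, Rab10, Rab7 and Rab11b, all among the higher ones. Over all genes past the threshold the share was 22.4%. Over all 42 GTPases the median size of the difference from the C2-/- mean was 0.63 against this library and 0.91 against the other 3 WT libraries, on the log2 scale.

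Levels between genes were compared as CPM per kb of annotated transcript. In WT the 5 highest GTPases were Rab7 (193 ± 89.7, SD, n = 4), Rab10 (181 ± 42.1), Rab12 (144 ± 12.0), Rab2a (94.5 ± 12.0) and Rab1 (62.4 ± 30.5). Rab7, Rab10 and Rab12 were not ordered beyond their spread. Neither were the neighbours Rab2a and Rab1, nor Rab1 and the next in order, Rab1b (60.4 ± 13.3). The WT libraries did not overlap between Rab12 and Rab2a, nor between Rab2a and Rab1b. The same 5 led in C2-/- at 378 ± 28.9, 280 ± 25.1, 174 ± 7.68, 206 ± 45.3 and 142 ± 11.6 (n = 3). Rab1b went from the 6th to the 19th place at 12.7 ± 4.93, and Rab5c from the 12th to the 22nd at 8.41 ± 3.19. Rab9 went from the 20th to the 10th at 40.8 ± 2.63. The 42 GTPases together held 4512 to 4704 CPM in C2-/- and 2743 to 3001 CPM in the deep WT libraries, with 3794 CPM in WT replicate 4. Of the sum in CPM per kb the 5 leading GTPases took 52.1 to 63.3% in WT and 66.0 to 69.2% in C2-/-, and in both measures WT replicate 4 stood nearest to C2-/-.

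**Figure D3:**
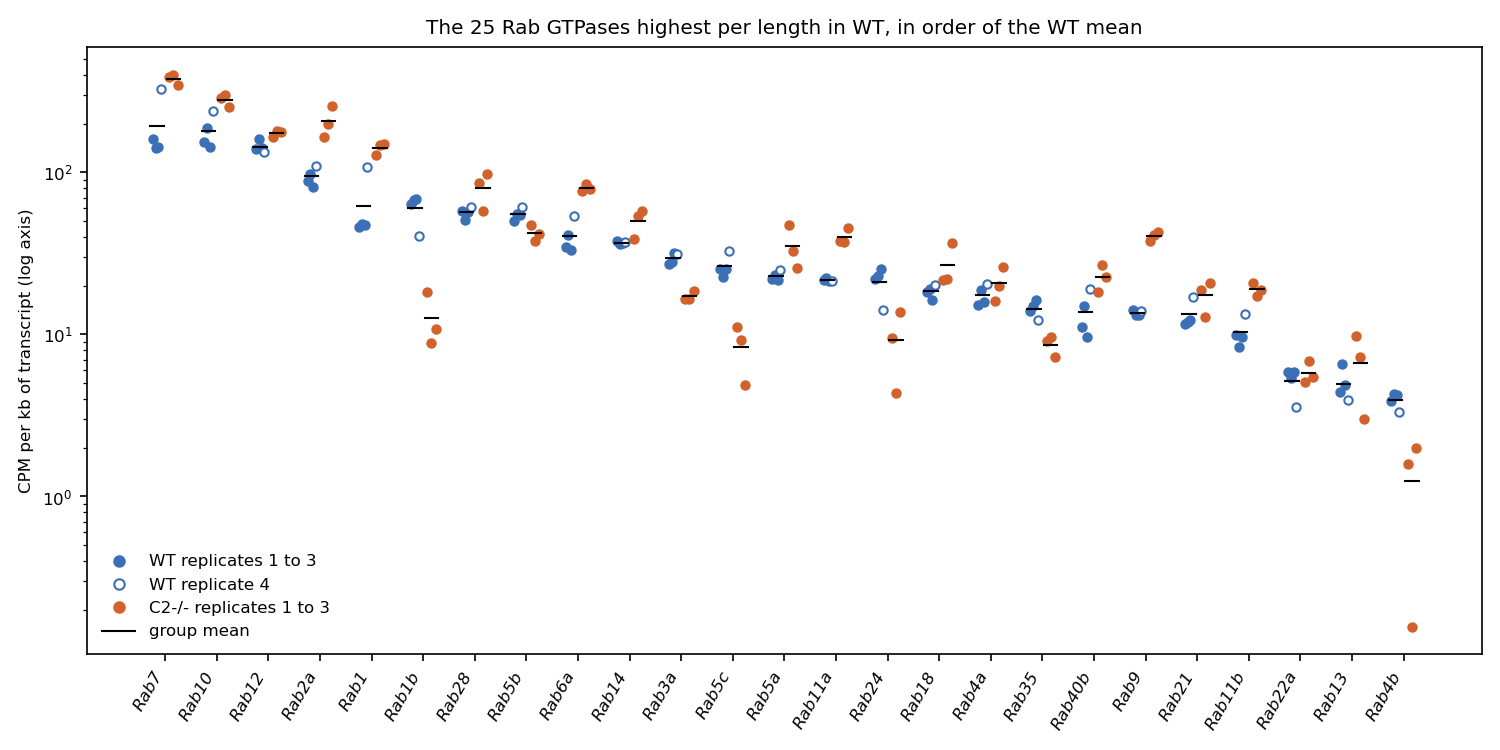
Level in CPM per kb of transcript (log axis) of the 25 Rab GTPases highest in WT, in order of the WT mean, for each library. Blue points are WT (open, replicate 4), orange points C2-/- and bars group means. Rab7, Rab10, Rab12, Rab2a and Rab1 lead in both groups, and Rab1b (60.4 in WT, 12.7 in C2-/-) drops furthest in order among the first 10.

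Paralogs were compared inside each library, by subtracting the log2 value of the second from that of the first, which cancels whatever acts alike on both. Of 13 pairs, 8 had no overlap between WT and C2-/- libraries, and these 8 reached the smallest p that 7 libraries allow (exact permutation test, two-sided, p = 0.0286 over 35 arrangements, adjusted p = 0.0464 over the 13 pairs). Over all pairs of genes in the table the differences did not overlap for 43.8%, or 31% after GC correction. An adjusted p under 0.05 needs at least 8 of the 13 pairs at that smallest p, so it hangs on the number of such pairs and does not tell one pair from another. The difference between Rab1 and Rab1b was 0.09, 0.06, 0.02 and 1.97 in WT and 3.38, 4.62 and 4.34 in C2-/-, a shift of 3.58. That between Rab5a and Rab5c was 0.07, 0.29, 0.04 and -0.12 in WT and 2.35, 2.08 and 2.66 in C2-/-, a shift of 2.30. These differences are of log2 CPM and not per length, so they show shifts between libraries and not which paralog is the more abundant. In WT replicates 1 to 3 they lay near 0 for both pairs, and in every C2-/- library they were above 2. The other shifts at that p were 3.23 for Rab40b against Rab40c, 2.53 for Rab4a against Rab4b, 0.97 for Rab5a against Rab5b, 0.88 for Rab22a against Rab31, -1.34 for Rab8a against Rab8b and -1.61 for Rab3gap1 against Rab3gap2. Without C2-/- replicate 2, which had no Rab4b reads, the shift of Rab4a against Rab4b was 1.37, and without the same library that of Rab22a against Rab31 was 0.52. Rab11a against Rab11b did not shift beyond the spread (-0.02), with differences of -0.26, 0.03, -0.25 and -0.72 in WT and -0.54, -0.29 and -0.13 in C2-/-. After GC correction 5 pairs had no overlap. Of these, 4 were among the 8 (Rab1 against Rab1b and the 3 pairs named next), and the other was Rab11a against Rab11b, which overlapped with the deposited values and shifted by -1.04 once corrected. The smallest p was reached by 3 pairs (Rab4a against Rab4b with 1.74, Rab40b against Rab40c with 2.00 and Rab3gap1 against Rab3gap2 with -1.47) with an adjusted p of 0.124. The shift of Rab1 against Rab1b was then 1.15 and that of Rab5a against Rab5c 0.48. In all 8 pairs that reached the smallest p with the deposited values, the paralog with more G and C in its transcript was the one that lost ground, by a margin in GC content of 1.02 percentage points (Rab3gap1 over Rab3gap2) to 16.9 (Rab1b over Rab1). These 8 were picked by their shift, and the pattern did not hold for all 13 pairs. Rab11b, with 8.61 points more than Rab11a, did not lose ground, and Rab3a, with 1.85 more than Rab3d, gained 0.21.

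**Figure D4:**
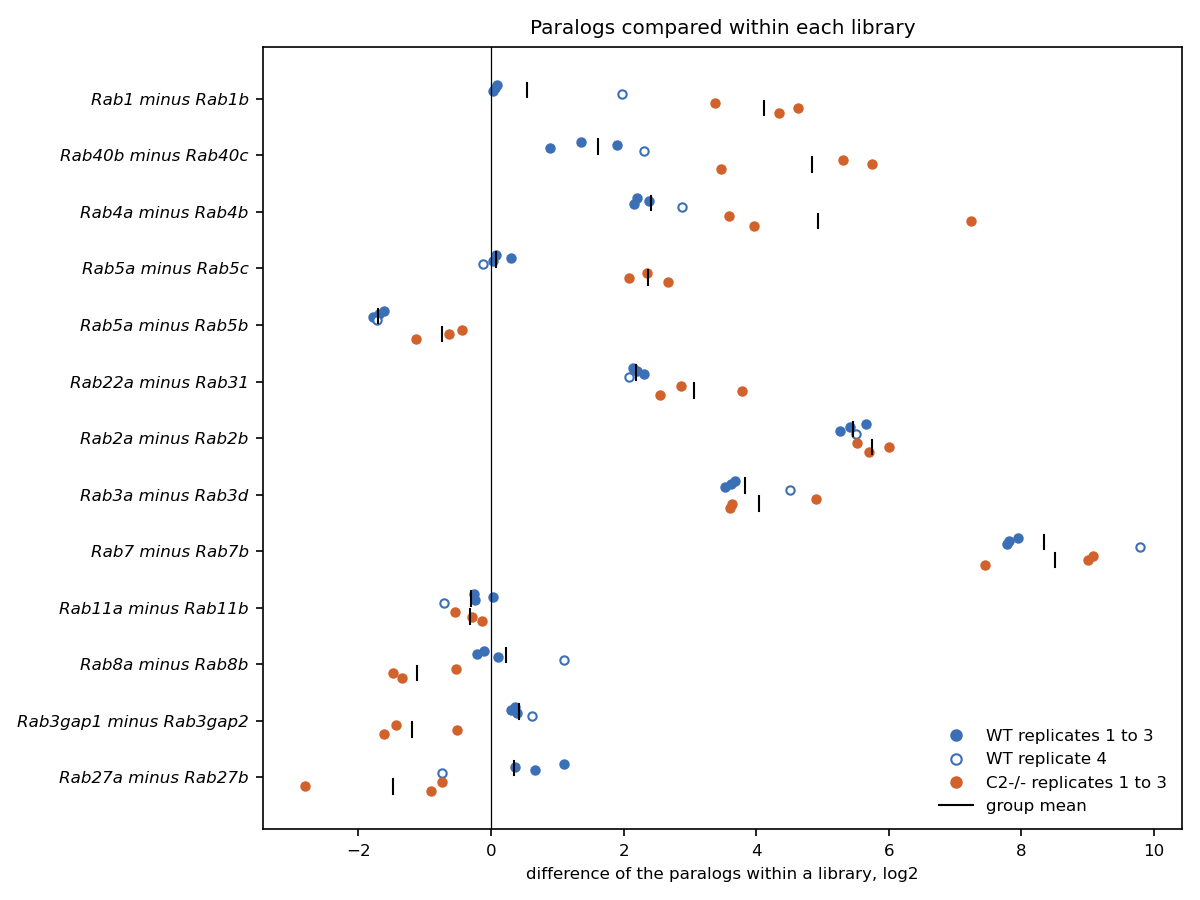
Difference in log2 value between the paralogs of 13 pairs within each library (horizontal axis). Blue points are WT (open, replicate 4), orange points C2-/- and bars group means. For 8 pairs the points of the groups are separate, and for Rab27a against Rab27b a WT and a C2-/- point coincide, with the widest shift, 3.58, for Rab1 against Rab1b.

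The direction of change followed the base composition of the transcript. The 12 GTPases that were higher had 39.5 to 49.4% G and C (median 44.6), and the 8 that were lower had 54.2 to 59.2% (median 56.6), with no overlap. Over the 42 GTPases the change and the GC content had a Pearson r of -0.81 and a Spearman rho of -0.79. These are descriptions across genes that share the same 7 libraries, and genes are not independent replicates. Over 12174 genes the Spearman rho was -0.68 and 43.6% of the variance in log2 change went with GC content, so the relation was general and not particular to the Rab genes. Whether the C2-/- libraries differ in base composition through biology or through library preparation cannot be told apart in this design.

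**Figure D5:**
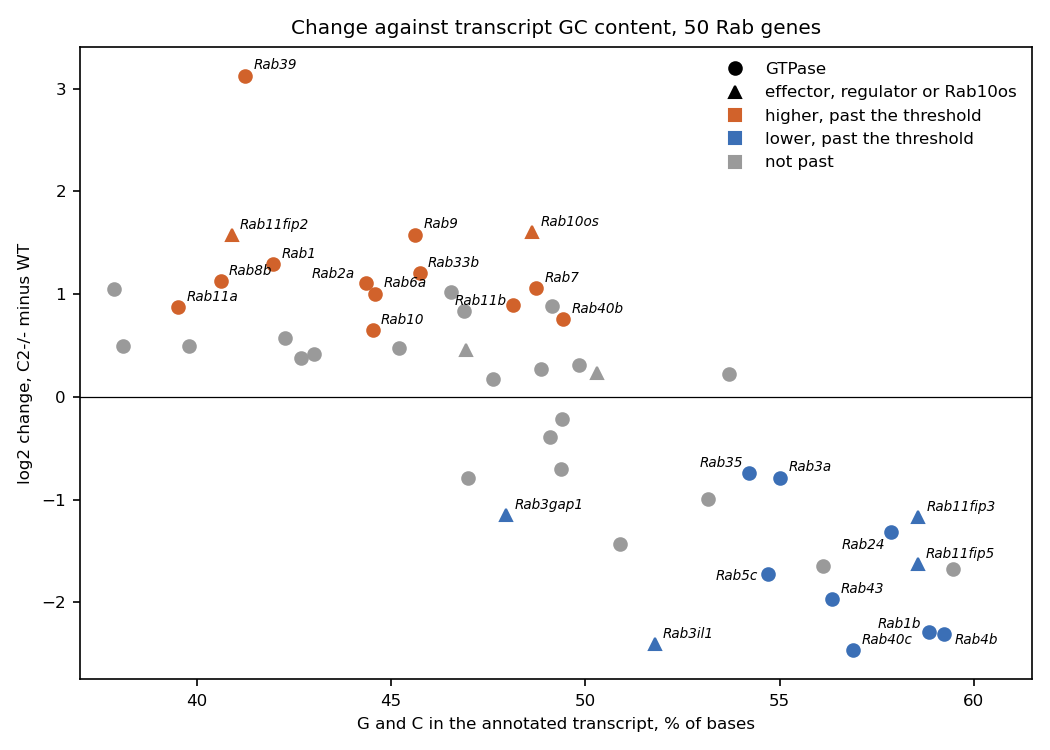
Log2 change (C2-/- minus WT, vertical axis) against the share of G and C in the annotated transcript (horizontal axis, %) for the 50 Rab genes. Orange and blue symbols are past the threshold and higher or lower, and grey symbols are not past it. The GTPases that are higher all lie below 50% and those that are lower all lie above 54%.

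Promoters did not part the groups in the same way. RefSeq gave 45 promoters (250 bases before to 50 after the start, GRCm38.p6) for 36 of the 42 GTPases. Their median GC content was 64.0% for the GTPases that were higher and 63.8% for those that were lower, against 52.7% for all 32851 promoters. The GC box GGGCGG, searched on both strands, was in 75% of promoters of the higher and 75% of the lower GTPases, in 75.6% of the family and in 35.7% of all promoters. The E-box CACGTG, recognised by transcription factors of lysosome genes among others, was in 13.3% of the family's promoters and 7.15% of all, CCAAT in 51.1% and 37.4%, and TATAAA in 2.22% and 13.6%. Within the family CACGTG was in 0% of promoters of the higher GTPases, 8.33% of the lower and 23.8% of those not past the threshold. The 250 bases before the start of Rab1 (chr11:20201162-20201411, plus strand) and Rab1b (chr19:5106997-5107246, minus strand) are printed with GC boxes in capitals, since with the deposited values these paralogs moved furthest apart.
Rab1: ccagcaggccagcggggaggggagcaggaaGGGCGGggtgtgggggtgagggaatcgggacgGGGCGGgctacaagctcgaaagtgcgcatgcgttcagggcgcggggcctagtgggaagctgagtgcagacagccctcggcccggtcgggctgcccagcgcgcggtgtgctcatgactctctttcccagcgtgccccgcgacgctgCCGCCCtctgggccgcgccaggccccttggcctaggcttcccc
Rab1b: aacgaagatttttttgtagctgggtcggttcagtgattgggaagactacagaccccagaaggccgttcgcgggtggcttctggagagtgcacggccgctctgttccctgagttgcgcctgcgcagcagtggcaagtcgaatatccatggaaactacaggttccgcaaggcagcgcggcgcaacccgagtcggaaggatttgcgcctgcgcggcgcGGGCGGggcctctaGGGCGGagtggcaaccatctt
Rab1 holds 3 GC boxes here and Rab1b 2. A match is a description of the letters and not of binding.

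Of 7 effectors and regulators, 5 passed the threshold, 1 higher and 4 lower (background 20.2% and 25%). Their median log2 change was -1.15 with the deposited values and 0.17 after GC correction, so the sign of the median turned. Rab11fip2, a Rab11 effector that links recycling endosomes to myosin Vb, was at 3.87, 4.02, 3.86 and 4.32 log2 CPM in WT and 5.46, 5.65 and 5.66 in C2-/-, a 2.97-fold rise (1.57 ± 0.21, limma, adjusted p = 0.000638). The other Rab11 family-interacting proteins went the other way. Rab11fip5 was at 4.80, 4.99, 5.10 and 5.04 in WT and 4.00, 2.63 and 3.44 in C2-/- (-1.63 ± 0.32, adjusted p = 0.00303). Rab11fip3, which acts at the cleavage furrow in dividing cells, was at 7.70, 7.51, 7.44 and 6.52 in WT and 6.24, 6.13 and 6.00 in C2-/- (-1.17 ± 0.26, adjusted p = 0.0056). WT replicate 4 lay nearer to the C2-/- libraries for Rab11fip3. After GC correction neither passed, with -0.10 for Rab11fip5 and a change of sign to 0.35 for Rab11fip3, and Rab11fip2 stood at 0.58, just under the fold limit.

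Rab3gap1, the catalytic subunit of the Rab3 GTPase-activating complex that also loads Rab18 with GTP, was at 5.45, 5.45, 5.38 and 5.55 log2 CPM in WT and 3.90, 4.97 and 4.04 in C2-/- (-1.15 ± 0.27, limma, adjusted p = 0.0067). It was the only effector or regulator past the threshold after GC correction (-1.30). Its partner Rab3gap2 was at 5.08, 5.16, 4.98 and 4.92 in WT and 5.34, 5.48 and 5.66 in C2-/- and did not pass (0.46 ± 0.18, adjusted p = 0.0634), so that the subunits parted by 1.61 on the log2 scale. Of the exon bases of Rab3gap2, 18.83% overlap Iars2 on the other strand. The exchange factors Rab3ip, also called Rabin8, and Rab3il1 act on Rab8 and Rab3. Rab3il1 was at 2.54, 2.72, 2.65 and 1.39 in WT and 0.92, -2.42 and 1.25 in C2-/- with 5, 0 and 11 reads (-2.41 ± 0.86, adjusted p = 0.0418). Rab3ip was at 4.72, 4.45, 4.62 and 4.52 in WT and 4.81, 5.02 and 4.60 in C2-/-, overlapping (0.23 ± 0.21, adjusted p = 0.375). Rab10os was at 5.48, 5.69, 5.32 and 6.72 in WT and 7.30, 7.75 and 7.16 in C2-/-, a 3.03-fold rise (1.60 ± 0.32, adjusted p = 0.00307) that was 1.56 and past the threshold after GC correction. It shares 143 exon bases with Rab10 on the opposite strand, 2.327% of its own, and WT replicate 4 again lay nearer to the C2-/- libraries.

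Other genes of the Rab cycle, from lists of 165 genes of which 150 were analysed, were called about as often as all genes. Of 150, 70 passed (46.7%, background 45.2%), 24 higher and 46 lower, and 26 after GC correction, 12 higher and 14 lower (17.3%, background 20.6%, with 12.3% higher and 8.33% lower). Among 11 prenylation and recycling factors 3 were higher and 2 lower (background 20.2% and 25%). Rabac1, the prenylated Rab acceptor of the Golgi, went from 6.43 ± 0.31 (SD, n = 4) to 3.06 ± 0.66 (n = 3), with 277 to 1484 reads against 15 to 40 (-3.38 ± 0.31, SE, limma, adjusted p = 0.000216), and passed after GC correction (-1.70). Rabggta and Rabggtb, the subunits of the enzyme that attaches the lipid tails, went opposite ways (-1.07 ± 0.32 and 0.91 ± 0.28). Chm and Chml, the escort proteins that present Rabs to it, were higher (1.39 ± 0.22 and 1.89 ± 0.58). After GC correction these 4 genes did not pass. Rabggta lost the call without WT replicate 1, 2 or 3 (-1.03, -1.03 and -1.06), Rabggtb without WT replicate 1, 2 or 3 or C2-/- replicate 2 or 3 (0.84, 0.86, 0.82, 0.74 and 0.81), and Chml without WT replicate 2 or 3 or C2-/- replicate 2 (1.88, 1.78 and 1.29).

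Among 43 exchange factors 4 were higher and 15 lower (background 20.2% and 25%). The largest falls were of Trappc6a and Trappc9, subunits of the TRAPP complexes that load Rab1 and Rab11, and of Dennd4b, which acts on Rab10. Trappc6a had 32, 23, 26 and 5 reads in WT and 0 in each C2-/- library, so no fold is given. Trappc9 changed by -2.40 ± 0.50 and Dennd4b by -2.34 ± 0.45 (SE, limma, adjusted p = 0.00391 and 0.00283). The largest rises were of Dennd2d (3.98 ± 0.59, adjusted p = 0.000908), a DENN domain protein with 5 to 18 reads in WT and 19 to 95 in C2-/-, of Trappc6b, the paralog of Trappc6a (1.62 ± 0.32), and of Dennd1b, which acts on Rab35 (1.43 ± 0.21). Trappc9 (-1.37), Trappc6b (1.0) and Dennd2d (3.52) passed after GC correction.

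Among 35 GTPase-activating proteins 5 were higher and 13 lower (background 20.2% and 25%). Tbc1d20, which acts on Rab1 and Rab18, had 67 to 399 reads in WT and 3 to 22 in C2-/- and fell by 3.29 on the log2 scale (SE 0.46, limma, adjusted p = 0.000694), and it passed after GC correction (-2.59). Tbc1d2, which acts on Rab7, had 28, 30, 53 and 2 reads in WT and 1, 0 and 0 in C2-/-, too few for a fold, and Tbc1d10a, with 1, 0 and 7 reads in C2-/-, changed by -2.77 ± 0.75. The largest rises were of Tbc1d19 (1.85 ± 0.28), Rabgap1l (1.77 ± 0.25) and Evi5 (1.37 ± 0.22), of which Tbc1d19 alone passed after GC correction (1.05). Among 53 effectors 11 were higher and 12 lower, against the same background. Rbsn, or rabenosyn-5, which binds Rab4 and Rab5, had 25, 2 and 29 reads in C2-/- and changed by -2.44 ± 0.65, or by -1.45 without the library with 2 reads (C2-/- replicate 2). It passed after GC correction (-2.32), as did Vps11, a core subunit of the HOPS and CORVET tethers (-1.63 ± 0.34, corrected -0.94). Rabep2, a Rab5 effector, changed by -1.73 ± 0.20 and did not pass after correction (-0.11). Wdr44, a Rab11 effector (1.47 ± 0.18), Eea1, the tether of early endosomes (1.32 ± 0.30), and Rufy2 (1.30 ± 0.20) were higher and did not pass after correction. Of the 3 genes for kinases and phosphatases of Rabs, Lrrk1 alone passed, with 10 to 51 reads in WT and 3, 1 and 0 in C2-/-, too few for a fold. It lost the call without WT replicate 1, 2 or 3 (limma, adjusted p = 0.0536, 0.0531 and 0.0568).

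Leaving out each library in turn, 19 of the 26 Rab genes past the threshold kept that call in all 7 fits, and 7 lost it in some. Rab40b lost it without WT replicate 1, 2 or 3 or C2-/- replicate 2 or 3 (0.68, 0.82, 0.61, 0.63 and 0.75). Rab10 lost it without WT replicate 1 or 3 or C2-/- replicate 1 or 2 (0.59, 0.55, 0.63 and 0.60). Rab24 lost it without WT replicate 1, 2 or 3 or C2-/- replicate 2 (-1.28, -1.26, -1.22 and -0.85), and Rab33b without WT replicate 2 or 3 or C2-/- replicate 2 or 3 (1.30, 1.28, 0.93 and 1.19). Rab35 lost it without WT replicate 2 or 3 (-0.72 and -0.67), Rab4b without any 1 of the WT replicates (-2.31, -2.27, -2.27 and -2.39) and Rab3il1 without WT replicate 1, 2 or 3 or C2-/- replicate 2 (-2.33, -2.28, -2.30 and -1.24). The number of GTPases past the threshold was thus lowest without WT replicate 3, at 14, where 5 were lower, as without WT replicate 2. Over all 12239 genes it was 5528 with every library and 4095 without WT replicate 3. Of the 24 members that were not past the threshold, 6 passed it in some of these fits. Without C2-/- replicate 2 these were Rab29 (-2.61), Rab30 (1.26), Rab2b (0.99) and Rab28 (0.69). Rab5a passed without WT replicate 4 or C2-/- replicate 3 (0.62 and 0.77) and Rab14 without C2-/- replicate 1 (0.59). The log2 change of 19 of these 24 moved by more than 1.5 times with the loss of a single library, for example between -2.62 and -0.40 for Rab34, -2.54 and -0.59 for Rab20 and 0.39 and 1.36 for Rab23. The same held for 3 of the 26 past the threshold (Rab24, Rab4b and Rab3il1). Rab1b, Rab9, Rab11b, Rab3gap1 and Rab10os were past the threshold under every alternative tried.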

How the data were processed

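TA muscle RNA of 4 WT and 3 C2-/- libraries was analysed, grouped by the sample titles. The study's supplement gives other muscles or ages for its RNA-seq experiments, and the labels were followed. The series design speaks of 4 animals in each group. For young TA muscle the study names 4 WT and 3 C2-/- mice, as many as the libraries here. The authors aligned reads to GRCm38.p6 with HISAT, counted them per gene with featureCounts 1.5.2, scaled them with edgeR's TMM factors and deposited log2 CPM values for 12239 genes. The filter behind that number and how featureCounts treated strand and reads with several matches are not given in the sources used here. A second deposited table held the authors' own limma/voom comparison (log2 fold change, average level, moderated t, p-value, adjusted p-value and log-odds) and was not used.

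The deposited log2 values equal the log2 of whole reads plus 0.5 per effective library size. In each library 100% of values came out whole (largest departure 1.9e-08 reads, tolerance 0.0001), and 3 reads stood at 0.195 to 1.12 CPM. Such floors cover counting error only. The values were tested with limma 3.58.1 in R 4.3.3 (lmFit, eBayes with trend, genotype the only term, all 7 libraries, Benjamini-Hochberg adjustment over all genes), a script tested on simulated data. A member was past the threshold at an adjusted p under 0.05 with a log2 change beyond 0.585. On the recovered reads limma's voom called 6015 genes past the threshold, against 5528. Fold changes are on this log2 scale, where a single library with few reads can set their size for low genes, as for Rab4b. Symbols were matched to GENCODE M21 (12174 genes, 50 of 50 members). For GC correction a spline of 5 degrees of freedom was fitted per library over genes. Levels per kb used the annotated transcript length. Every pair of libraries differed by more than sampling noise (chi-square per degree of freedom at least 9.121).

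The members, lists and tests were chosen with earlier results of these data known. Named with a value per library were the 8 largest rises and 8 largest falls among GTPases past the threshold, up to 4 effectors or regulators either way, the 5 GTPases highest per length in WT, the GTPases tied to GLUT4 and paralogs that differed most, and from the other lists up to 3 genes either way.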

Additional observations from a re-analysis of the deposited data

Results flagged for a closer look

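Dixon's test for an outlying value was run on the 4 WT libraries, with the distance from the extreme value to its neighbour taken as a share of the range and set against Dixon's critical value. Of 51 genes tested in WT, the 50 Rab genes and Mybpc2, 9 had a value past it, or 17.6%, whereas chance gives about 1 in 20, or 2.55. Over all 12239 genes the share was 17.3%, and in 93.0% of those genes the outlying library was WT replicate 4. WT replicate 4, the shallow WT library, was the outlying library in all 9, and the 3 C2-/- libraries were not tested. Rab1 was at 8.26 log2 CPM in this library and at 7.02 to 7.08 in the other WT libraries, and Rab7 at 9.46 against 8.26 to 8.43. Rab8a was at 4.75 against 3.72 to 3.82, and Rab21 at 6.30 against 5.75 to 5.83. These 4 genes were thus higher in WT replicate 4. Rab1b was lower, at 6.28 against 6.94 to 7.04, as were Rab3il1 at 1.39 against 2.54 to 2.72 and Rab29 at 1.51 against 2.24 to 2.33. Rab7b stood at -0.33 against 0.45 to 0.49 and Rab20 at -1.55 against 0.93 to 1.40, where this library had 3 and 1 reads. In 8 of the 9 genes the value of WT replicate 4 was displaced from the other WT libraries towards the C2-/- mean, and Rab7b was displaced away from it. Rab8a is a marginal case among the 8, since its C2-/- mean of 3.80 lay within the range of the other WT libraries.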

How the results depend on the processing

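GC correction moved the results most. It gave 6 GTPases past the threshold instead of 20 (4 higher, 2 lower), and of these 6 Rab4a and Rab18 were not among the 20. It gave 1 effector or regulator instead of 5 (0 higher, as Rab11fip2 fell just short of the fold limit, and 1 lower) and 26 other genes of the Rab cycle instead of 70 (12 higher, 14 lower). There were 5 paralog pairs without overlap (4 of the former 8 and 1 other), and 2509 of all genes passed instead of 5528. The sign turned for Rab21 (-0.42), Rab24 (0.12), Rab11fip3 (0.35), Rab5a (-0.27), Rab18 (-0.62), Rab27b (-0.26), Rab14 (-0.34), Rab22a (-0.016), Rab28 (-0.031), Rab35 (0.16), Rab30 (-0.79), Rab3a (0.24) and Rab11a (-0.27), and for Rab2a against Rab2b (-0.029).

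Titles number the WT libraries 1 to 4 and the C2-/- libraries 1 to 3, but libraries of the same number did not deviate together (r of 0.05, -0.06 and -0.05 for numbers 1 to 3, against -0.11 to 0.12 for unlike numbers). No pairing by number was thus seen, though these few correlations cannot exclude one. With the replicate number as a block 20 GTPases passed (12 higher, 8 lower), Rab5a in place of Rab33b. Of all genes 5901 passed, and Rab8a turned to 0.035. The block with GC correction and the GC correction without WT replicate 4, both chosen after seeing the data, gave the same changes, because the block leaves WT replicate 4 without a partner. Both gave 8 GTPases past the threshold (6 higher, 2 lower). Over all 12174 genes matched, 2918 passed with the block and 3130 without WT replicate 4. Of effectors the block left 1 (0 higher, 1 lower) and the other fit 2 (1 lower), and of other genes 37 (18 lower) and 36 (19 lower). In both, the values were -0.36 for Rab21, 0.054 for Rab24, 0.22 for Rab11fip3, -0.30 for Rab5a, -0.66 for Rab18, -0.40 for Rab14, -0.19 for Rab22a, -0.032 for Rab28, 0.15 for Rab35, 0.035 for Rab11fip5, -0.98 for Rab30, 0.36 for Rab3a, 0.13 for Rab8a, -0.36 for Rab11a and -0.023 for Rab8b. No cause of a turned sign was tested.

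A log2 limit of 0.5, added after seeing the data, gave 21 GTPases (13 higher, 8 lower). An adjusted p under 0.01 gave 12 GTPases (7 higher, 5 lower) and 45 other genes (26 lower). Requiring a mean log2 value of at least 3 gave 5 lower GTPases, since fewer genes were tested, and median centring gave 2 higher effectors. Library quality weights turned Rab22a (-0.052) and Rab8a (0.044), quantile normalization turned Rab27a (0.43), and log2(CPM + 1) turned Rab3a against Rab3d (-0.10). Leaving out 1 library gave 14 to 20 GTPases (9 to 13 higher, 5 to 8 lower) and 4 or 5 effectors, with 4095 to 6136 called over all 12239 genes. It gave 8 to 10 pairs, and ranges that crossed 0 for Rab13 (-0.052 to 0.81), Rab8a (-0.40 to 0.038) and Rab27a (-1.54 to 0.35). Voom, eBayes without the trend and the lower filter kept these counts within 1.5 times. Depth limits members under about 20 reads in C2-/-, and 3 C2-/- libraries limit every test.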
